A study of Mus musculus with 9 samples.

Results

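The genes described here are 10 regulators of the epithelial-mesenchymal transition and of the splicing programme that goes with it: the zinc finger repressors Snai1, Snai2, Zeb1 and Zeb2, the basic helix-loop-helix factors Twist1 and Twist2, the homeodomain factor Prrx1, the epithelial splicing proteins Esrp1 and Esrp2, and the epithelial transcription factor Grhl2. They were taken by symbol from the array's annotation, which gave each of them 1 probe set, among 19938 genes in all. Total RNA had been read on 9 Affymetrix Mouse Gene ST arrays, 3 in each of 3 groups labelled C57BL/6: adult cardiac fibroblasts subjected to a protein-based dedifferentiation, embryonic stem (ES) cells, and adult cardiac fibroblasts. No transgene, mutation, time point or animal age is named for any group, and the protein used is not given in the labels read here. Whether the 3 arrays of a group stand for separate animals or cultures is not stated in the labels, and the p-values therefore cover no more than the scatter among these arrays, possibly technical.

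In an epithelial-mesenchymal transition, cells give up junctions and polarity and take on a fibroblast-like shape. Snail and Zeb proteins bind E-boxes in the promoters of epithelial genes such as Cdh1 and repress them, Twist and Prrx1 proteins drive mesenchymal genes, and Grhl2 and Zeb1 are known to repress each other. Esrp proteins bind RNA and select the epithelial exons of genes such as Fgfr2, Cd44, Ctnnd1 and Enah, and microRNAs of the miR-200 family repress Zeb1 and Zeb2. Reprogramming of fibroblasts is known to pass through the reverse transition, from mesenchymal to epithelial cells. The arrays give 1 value per transcript cluster, so exon choice was not measured.

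The hexamer CACCTG, or CAGGTG on the opposite strand, is the E-box known to be bound by Snail and Zeb proteins. RefSeq windows that span 250 bases before to 50 bases after the start of a gene (GRCm38.p6) were searched for it on both strands. At least 1 copy was found for 19 of the 22 genes with a window in a list of epithelial adhesion, polarity and keratin genes (86.4%). The share was 22.2% (3465 of 15614) among all genes on the array with a window, and 1 of 13 (7.69%) among genes of a mesenchymal list. The epithelial list holds genes picked as known targets of these repressors or of Grhl2, so its high share is not independent evidence. The related E-boxes CAGCTG and CACGTG occurred near 3 (13.6%) and 5 (22.7%) of the same 22 genes, against 18.4% and 9.5% of all genes on the array. Over all genes with a window, CACCTG was found near 25.2% of those higher in dedifferentiated cells than in fibroblasts, near 18.7% of those lower and near 22.3% of those not called. CACGTG was found near 194 of 1371 higher genes, against 1144 of 12683 of those not called. The 250 bases before the start are printed for the 5 genes of the epithelial list with the largest rise in dedifferentiated cells among those with a window. They are followed by Snai1, the 1 regulator of the 5 with a window that held the motif. Capitals mark the E-box, and each sequence runs 5′ to 3′ on the strand of the gene.
Epcam promoter, chr17:87635729-87635978, + strand: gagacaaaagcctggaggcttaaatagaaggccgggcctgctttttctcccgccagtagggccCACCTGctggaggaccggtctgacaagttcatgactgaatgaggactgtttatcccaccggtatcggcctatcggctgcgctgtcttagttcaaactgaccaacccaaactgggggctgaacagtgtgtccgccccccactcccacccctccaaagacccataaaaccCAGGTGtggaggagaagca
Krt18 promoter, chr15:102027966-102028215, + strand: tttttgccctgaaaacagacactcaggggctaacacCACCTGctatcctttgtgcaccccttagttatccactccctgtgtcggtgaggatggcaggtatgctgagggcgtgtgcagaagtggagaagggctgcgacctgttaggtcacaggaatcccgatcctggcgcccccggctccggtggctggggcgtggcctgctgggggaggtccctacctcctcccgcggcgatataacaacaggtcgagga
Krt8 promoter, chr15:102004343-102004592, - strand: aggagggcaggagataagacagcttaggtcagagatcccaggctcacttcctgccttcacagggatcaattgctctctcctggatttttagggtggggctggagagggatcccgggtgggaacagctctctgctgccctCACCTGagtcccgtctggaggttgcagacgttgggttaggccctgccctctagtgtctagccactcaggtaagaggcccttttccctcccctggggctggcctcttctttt
Cldn4 promoter, chr5:134946935-134947184, - strand: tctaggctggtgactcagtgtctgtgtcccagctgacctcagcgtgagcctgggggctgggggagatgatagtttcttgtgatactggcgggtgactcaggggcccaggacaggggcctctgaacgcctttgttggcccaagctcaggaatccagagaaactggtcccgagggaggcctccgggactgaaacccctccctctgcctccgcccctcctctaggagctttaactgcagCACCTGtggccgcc
Spint2 promoter, chr7:29281978-29282227, - strand: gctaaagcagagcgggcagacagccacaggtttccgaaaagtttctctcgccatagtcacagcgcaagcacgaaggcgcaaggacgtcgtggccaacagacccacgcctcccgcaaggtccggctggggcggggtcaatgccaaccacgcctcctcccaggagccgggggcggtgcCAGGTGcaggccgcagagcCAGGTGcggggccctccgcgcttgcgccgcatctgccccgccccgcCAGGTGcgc
Snai1 promoter, chr2:167537945-167538194, + strand: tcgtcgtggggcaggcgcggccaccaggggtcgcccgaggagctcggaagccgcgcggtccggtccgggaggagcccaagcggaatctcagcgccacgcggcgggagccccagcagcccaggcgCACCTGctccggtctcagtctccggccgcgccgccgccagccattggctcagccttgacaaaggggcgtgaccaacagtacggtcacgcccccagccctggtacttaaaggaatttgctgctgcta
Epcam encodes an epithelial surface adhesion protein, and its E-boxes began 187 and 19 bases before the start. Krt18 and Krt8 encode the keratin pair of simple epithelia and had 1 E-box each, 214 and 111 bases before the start. Cldn4 encodes a tight junction claudin and had 1 before the start. Spint2, an inhibitor of epithelial serine proteases, had 3. A match describes these letters and is not a measured binding site.

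**Figure D1:**
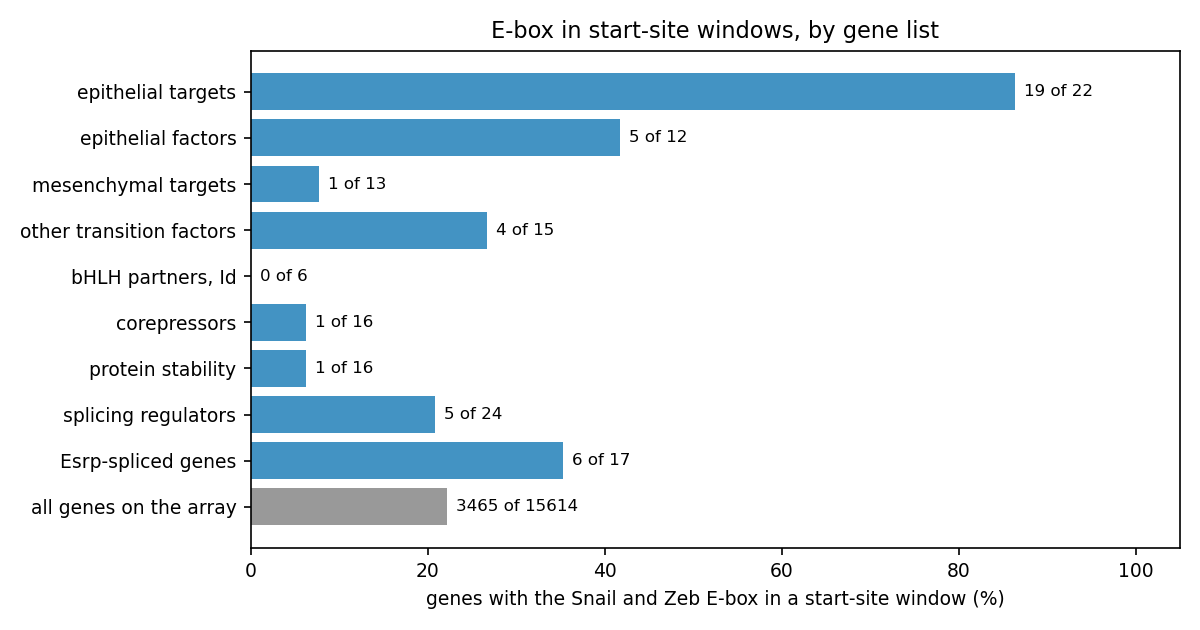
Share of genes (x axis, percent) with the Snail and Zeb E-box in any start-site window, for each gene list (y axis) and for all genes on the array with a window (grey). The epithelial targets stand at 19 of 22, against 3465 of 15614 for all genes.

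The first comparison asked how the 10 regulators differed between dedifferentiated cells and fibroblasts. All 7 mesenchymal factors were lower in dedifferentiated cells, by 2.28-fold for Snai1 to 32.7-fold for Prrx1, and Esrp1 and Grhl2 were higher, by 21.2-fold and 3.98-fold. Esrp2 was not called. A gene was called at a Benjamini-Hochberg adjusted p under 0.05 over all genes and a difference of at least 1 log2 unit, in 1 limma fit of the 9 arrays. By this rule 7 regulators were lower and 2 higher, beside 10.1% and 8.79% of all genes. The dedifferentiated and fibroblast arrays did not overlap for 9 of the 10, beside 54.7% of all genes. The median difference was -1.94 log2 units over the 10 regulators and 0.01 over all genes. ES cells also had 7 regulators lower and 2 higher than fibroblasts, beside 10.4% and 8.85% of all genes, with a median of -2.24, and ES and fibroblast arrays did not overlap for any of the 10, beside 51.9% of all genes. Both comparisons use the same fibroblast arrays, so their values are given side by side and are not independent of each other. The fibroblast arrays also differed from both other groups in the X-inactivation RNA Xist and the Y-linked Eif2s3y. Rises and falls here therefore compare groups and do not follow the same cells.

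**Figure D2:**
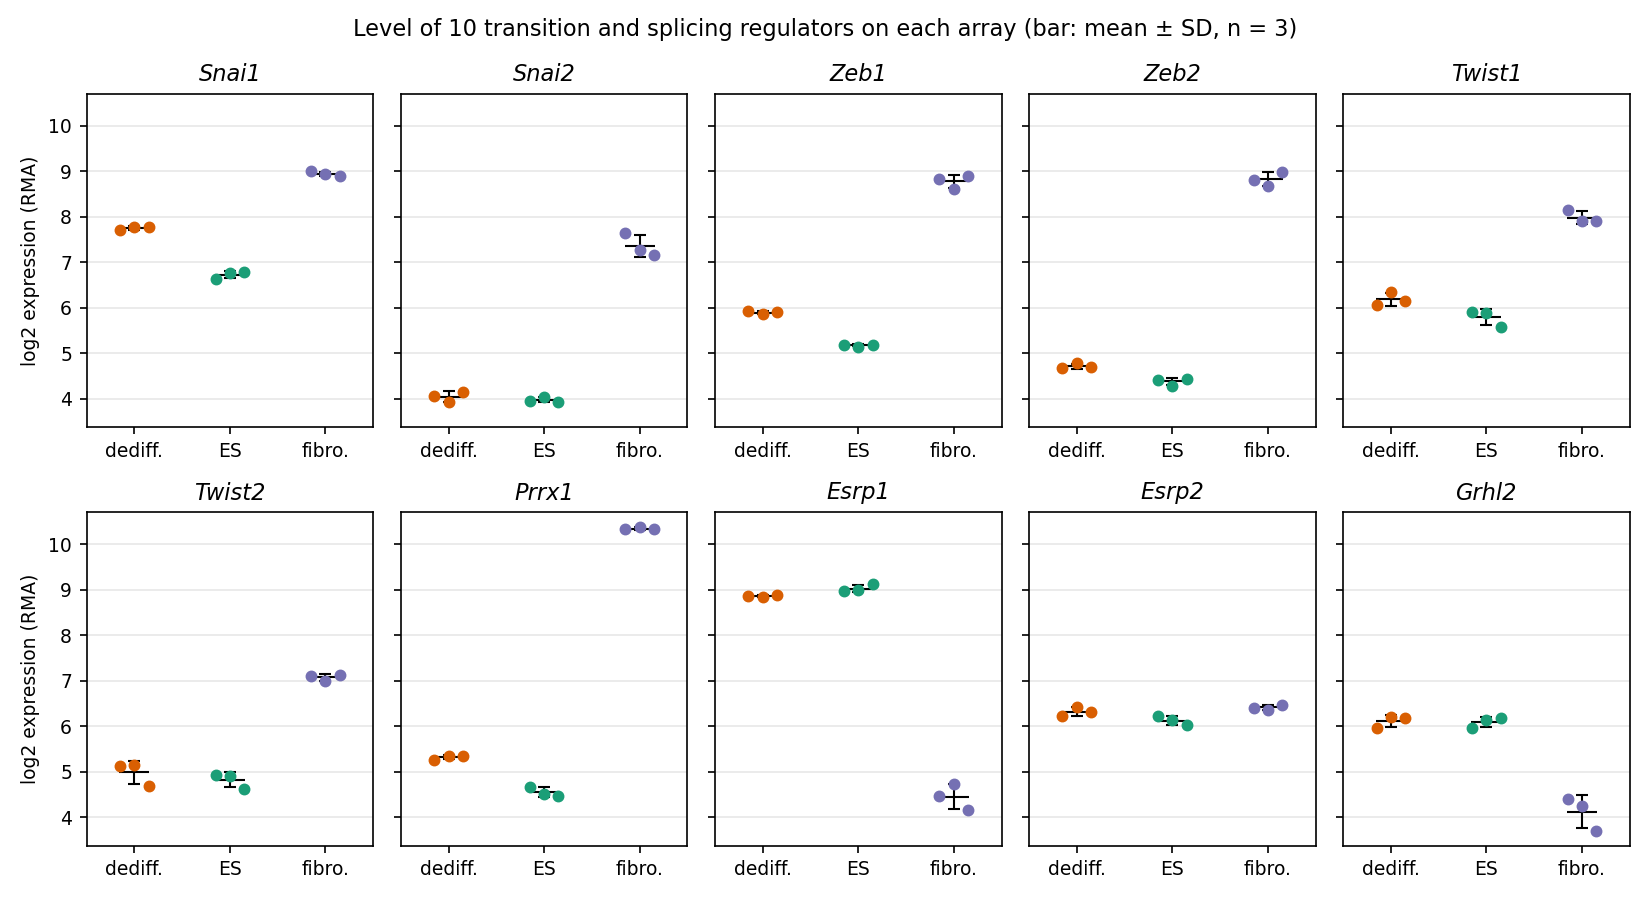
Level of each of the 10 regulators (y axis, log2 RMA value) on the 3 arrays of dedifferentiated cells, ES cells and fibroblasts (x axis), with the mean and SD of each group as bars. The 7 mesenchymal factors are highest in fibroblasts, Esrp1 and Grhl2 are lowest there, and Esrp2 stays between 6.02 and 6.47 on all 9 arrays.

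Prrx1, a homeodomain factor of limb and heart mesenchyme, showed the largest fall. It was at 5.27, 5.35 and 5.35 on the dedifferentiated arrays and at 4.67, 4.51 and 4.47 on the ES arrays, against 10.33, 10.38 and 10.34 on the fibroblast arrays (log2 values). None of the 3 groups overlapped another. The difference from fibroblasts was -5.03 log2 units in dedifferentiated cells (95% interval -5.2 to -4.86, adjusted p = 1.8e-12) and -5.8 in ES cells (-5.97 to -5.63, adjusted p = 6.8e-13).

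Zeb2, a zinc finger repressor, had the next largest fall of the 7 mesenchymal factors. Its values were 4.67, 4.78 and 4.69 in dedifferentiated cells and 4.42, 4.29 and 4.44 in ES cells, against 8.82, 8.69 and 8.99 in fibroblasts. The fall was 17.4-fold in dedifferentiated cells (-4.12 log2 units, 95% interval -4.32 to -3.92) and 21.9-fold in ES cells (-4.45, -4.65 to -4.25). Zeb1, its paralog, which represses Cdh1 and polarity genes, was at 5.92, 5.86 and 5.9 in dedifferentiated cells and 5.19, 5.15 and 5.19 in ES cells, against 8.83, 8.62 and 8.9 in fibroblasts. Here too the 3 groups did not overlap. Zeb1 differed from fibroblasts by -2.89 log2 units (7.41-fold lower) in dedifferentiated cells and by -3.61 (12.2-fold lower) in ES cells, with adjusted p = 1.1e-10 and adjusted p = 1.8e-11.

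Snai1 had the smallest fall of the 7 in dedifferentiated cells. Snai1, a direct repressor of Cdh1 that acts early in gastrulation and neural crest formation, was at 7.71, 7.78 and 7.78 in dedifferentiated cells and 6.64, 6.76 and 6.78 in ES cells, against 9.0, 8.94 and 8.9 in fibroblasts. Its 3 groups were far apart relative to their spread, with the dedifferentiated cells near the middle. The differences from fibroblasts were -1.19 log2 units in dedifferentiated cells (95% interval -1.35 to -1.03, adjusted p = 6.5e-08) and -2.22 in ES cells (-2.38 to -2.06, adjusted p = 3.2e-10). Snai2, also called Slug and known from migrating neural crest, was at 4.07, 3.92 and 4.16 in dedifferentiated cells and 3.95, 4.04 and 3.94 in ES cells, against 7.64, 7.27 and 7.17 in fibroblasts. Dedifferentiated and ES arrays overlapped for Snai2. It fell 9.92-fold in dedifferentiated cells (-3.31 log2 units) and 10.4-fold in ES cells (-3.38).

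Twist1, which is needed for cranial mesenchyme and pairs with E proteins, was at 6.07, 6.35 and 6.16 in dedifferentiated cells and 5.91, 5.89 and 5.59 in ES cells, against 8.16, 7.9 and 7.9 in fibroblasts. Twist2, the related factor of dermal fibroblasts, was at 5.12, 5.15 and 4.69 in dedifferentiated cells and 4.94, 4.91 and 4.63 in ES cells, against 7.1, 6.99 and 7.14 in fibroblasts. The fibroblast arrays stood above all others for both genes, while dedifferentiated and ES arrays overlapped for Twist2. Twist1 differed from fibroblasts by -1.79 log2 units in dedifferentiated cells (95% interval -2.05 to -1.53) and by -2.19 in ES cells (-2.45 to -1.93). Twist2 differed by -2.09 (-2.37 to -1.8) and by -2.25 (-2.53 to -1.96) in the same cells. After each gene's own mean was subtracted, the profiles of Twist1 and Twist2 over the 9 arrays were the closest of any pair of the 10 regulators (Euclidean distance 0.57 log2 units), ahead of Snai2 and Zeb1 (0.905).

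On the epithelial side, Esrp1 showed the largest rise of the 10 regulators. It was at 8.87, 8.84 and 8.89 in dedifferentiated cells and 8.97, 8.99 and 9.12 in ES cells, against 4.47, 4.73 and 4.17 in fibroblasts. The rise was 4.41 log2 units in dedifferentiated cells (95% interval 4.14 to 4.67, adjusted p = 8.2e-11) and 4.57 in ES cells (4.3 to 4.83, adjusted p = 5.6e-11). Its paralog Esrp2 was at 6.23, 6.43 and 6.31 in dedifferentiated cells and 6.23, 6.13 and 6.02 in ES cells, against 6.41, 6.37 and 6.47 in fibroblasts. Esrp2 differed from fibroblasts by -0.1 in dedifferentiated cells (-0.28 to 0.08, adjusted p = 0.385) and by -0.29 in ES cells (-0.48 to -0.11, adjusted p = 0.0111), both short of the required size. On these arrays, the Esrp2 intervals did not reach the size of the Esrp1 change. They cover only the scatter among these arrays, possibly technical. Whether the Esrp2 probe set follows changes in Esrp2 RNA was not tested.

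Grhl2, which activates Cdh1 and claudin genes in epithelia, was at 5.97, 6.2 and 6.19 in dedifferentiated cells and 5.97, 6.13 and 6.19 in ES cells, against 4.41, 4.24 and 3.71 in fibroblasts. The dedifferentiated and ES arrays lay in the same range, above every fibroblast array. Grhl2 rose by 1.99 log2 units in dedifferentiated cells (95% interval 1.65 to 2.34, adjusted p = 5.2e-07) and by 1.98 in ES cells (1.63 to 2.32, adjusted p = 5.4e-07).

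**Figure D3:**
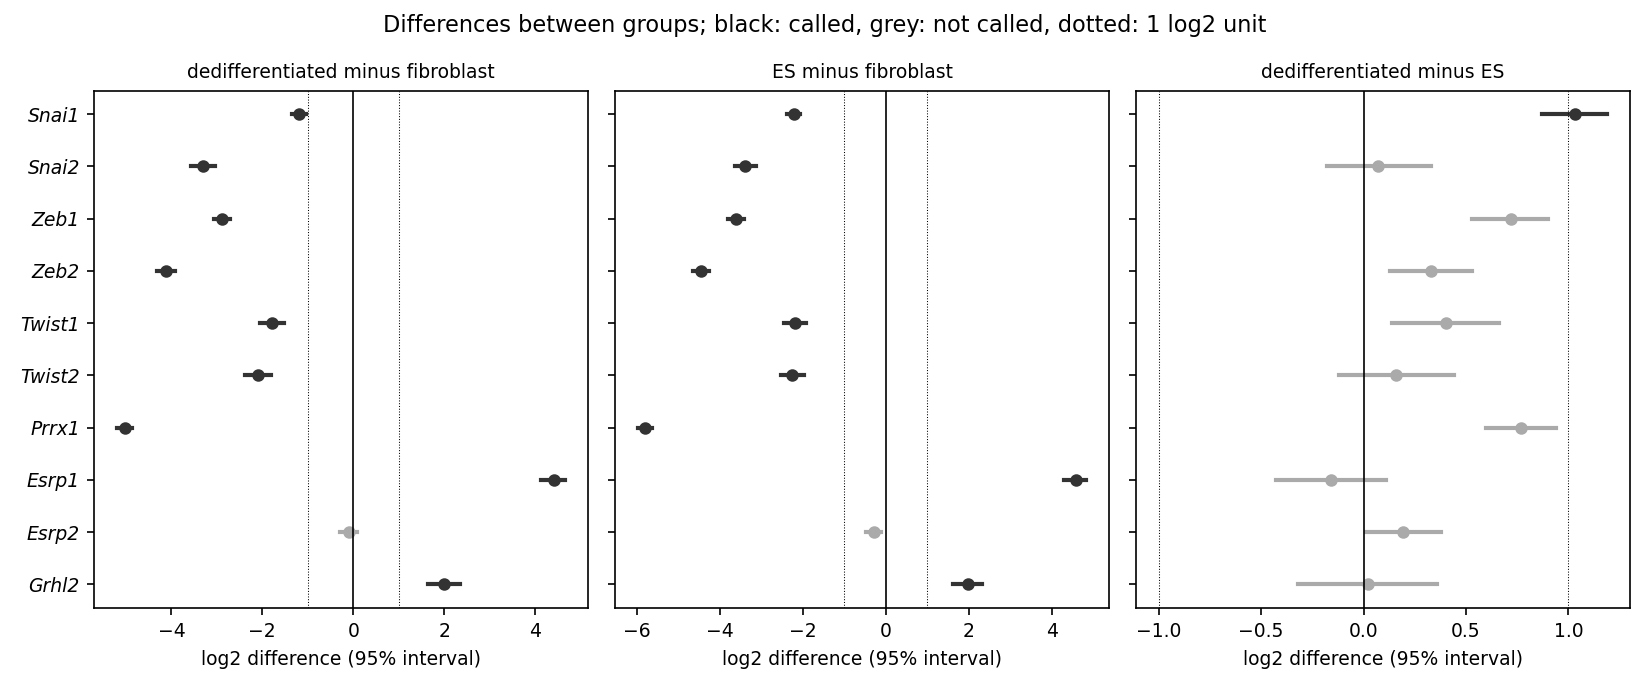
Log2 difference (x axis) with its 95% interval from the fit for each of the 10 regulators (y axis) in 3 comparisons: dedifferentiated cells minus fibroblasts, ES cells minus fibroblasts, and dedifferentiated minus ES cells. Black marks called genes and grey those not called; in the right panel Snai1 at 1.03 is the 1 called gene, and the scales of the panels differ.

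Dedifferentiated and ES cells were then compared directly. Snai1 was 2.04-fold higher in dedifferentiated cells (1.03 log2 units, 95% interval 0.87 to 1.19, adjusted p = 7.4e-06), and it was the 1 regulator of 10 that was called, beside 1.55% of all genes called in either direction and 1.01% called higher. This call rests on the size rule: the difference was 0.985 without ES replicate 1 and 0.999 with array weights, with adjusted p = 2.5e-05 and adjusted p = 3.4e-07. Prrx1 differed by 0.77 (0.6 to 0.94, adjusted p = 5.8e-05), Zeb1 by 0.72 (0.53 to 0.9, adjusted p = 1.4e-04), Twist1 by 0.4 (0.14 to 0.66, adjusted p = 0.0309) and Zeb2 by 0.33 (0.13 to 0.53, adjusted p = 0.0238). Those 4 stayed under 1 log2 unit, although their dedifferentiated arrays lay above all ES arrays. Snai2 differed by 0.07 (-0.18 to 0.33), Twist2 by 0.16 (-0.12 to 0.44), Esrp1 by -0.16 (-0.43 to 0.11), Esrp2 by 0.19 (0.01 to 0.38) and Grhl2 by 0.02 (-0.32 to 0.36), with adjusted p of 0.14 or more. In all, 6 of the 10 regulators had dedifferentiated and ES arrays that did not overlap, beside 32.6% of all genes.

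On the log2 scale, the dedifferentiated mean of Snai1 lay 53.6% of the way from the fibroblast mean to the ES mean. The other called regulators lay at 80.1% (Zeb1) to 101% (Grhl2). On the linear scale, Snai1 in dedifferentiated cells lay 28.5% of the way from the ES level to the fibroblast level. Zeb1 lay at 5.76% and Twist1 at 8.95% of that way. Among 12 fibroblast markers Pdgfra lay highest, at 19.1%, while the median was 0.251% and the lowest value -14.8%. Some of these markers had ES levels that may be background, and they were kept, unlike the regulators left out below. The lowest value was that of Fap, whose fibroblast mean (3.97) was itself below all array medians. Snai2, Zeb2, Twist2 and Prrx1 are not placed on the linear scale. Their ES means were no higher than the highest array median (array medians 4.647 to 4.859), where a level may be background. The ES end of their log2 positions has the same limit. So do the dedifferentiated means of Snai2 (4.05) and Zeb2 (4.71). The fibroblast means of Esrp1 (4.46) and Grhl2 (4.12) lay below all array medians. Their rises and log2 positions therefore start from a level that may be background. The summed linear level of the 12 fibroblast markers was 1011 to 1087 on dedifferentiated arrays and 592 to 643 on ES arrays, against 26727 to 29467 on fibroblast arrays. RMA values have no true zero.

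Markers of primitive endoderm, an early extraembryonic tissue, also stood higher in dedifferentiated than in ES cells. Of 8 markers, 4 were called higher and 0 lower, with summed levels of 2474 to 3132 on dedifferentiated arrays, 1043 to 1506 on ES arrays and 1598 to 1712 on fibroblast arrays. The share of all genes called higher in this comparison was 1.01%. Sox17 rose by 1.79 and Gata4 by 1.63 log2 units over ES cells, while Afp differed by -0.09. Gata4 was also high in fibroblasts, with a mean of 9.16, against 9.61 in dedifferentiated and 7.98 in ES cells. The Sox17 mean was 5.1 in fibroblasts, against 8.04 and 6.26 in dedifferentiated and ES cells. Against ES cells, 2 of 12 fibroblast markers were called higher and 0 lower, Pdgfra by 1.37 and Dcn by 1.2. Ddr2 differed by 0.9 and Thy1 by 0.85, while 4 of the 12 lay below 0. Of 10 endothelial markers 2 were called higher, Cdh5 by 1.38 and Esam by 1.07 (0.977 without dedifferentiated replicate 3), and of 9 smooth muscle markers 1 was, Cnn1 by 1.53. The part of any of these cells in the Snai1 difference was not tested. In these bulk samples, fewer cells of a type and less RNA per cell cannot be told apart.

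The targets of the regulators were described through gene lists that leave out the 10 genes themselves. Of 32 epithelial adhesion, polarity and keratin genes, 28 rose and 0 fell in dedifferentiated cells against fibroblasts (median 2.59 log2 units), and 29 rose and 0 fell in ES cells (median 3.31). Cdh1, the E-cadherin gene, was at 10.41 to 10.51 in dedifferentiated cells and 10.25 to 10.34 in ES cells, against 4.12 to 5.02 in fibroblasts. It rose 62.8-fold in dedifferentiated cells. Epcam rose by 6.23 and Krt18 by 5.65 log2 units, and by 6.4 and 6.25 in ES cells. Muc1, a surface mucin, differed by -0.35 in dedifferentiated cells and was not called.

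In dedifferentiated against ES cells the median of the 32 genes was -0.47, with 25 of 32 below 0, whereas the median of all genes was 0. Only 3 passed the size rule, beside 0.547% of all genes called lower: Perp, a desmosome protein gene, fell by 1.29, the claudin gene Cldn3 by 1.03 and the membrane protease gene St14 by 1.01. Cldn3 missed the size rule without dedifferentiated replicate 3 (-0.962), ES replicate 1 (-0.953) or ES replicate 3 (-0.961) and with array weights (-0.849). St14 missed it without dedifferentiated replicate 1 (-0.998), ES replicate 2 (-0.999) or ES replicate 3 (-0.943). Without ES replicate 3, 1 of the 32 genes was called. Cdh1 differed by 0.17 (95% interval -0.23 to 0.57) and Epcam by -0.18.

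Of 25 mesenchymal readout genes, 23 fell and 0 rose in dedifferentiated cells (median -3.76), and 23 fell in ES cells (median -4.38). Lox, which cross-links collagen, fell by 6.81 and by 8.1 log2 units in these cells, and Col3a1, a fibrillar collagen gene, fell by 6.67 and by 7.01. Cdh2, the N-cadherin gene, was at 5.61 to 5.72 in dedifferentiated cells and 4.69 to 4.92 in ES cells, against 10.13 to 10.5 in fibroblasts. Fn1, fibronectin, differed from fibroblasts by -2.0 in dedifferentiated and -1.42 in ES cells. Against ES cells, 4 of the 25 genes were higher in dedifferentiated cells and 0 lower (median 0.34): Tnc by 3.11, Vim by 1.51, Lox by 1.29 and Cd44 by 1.27. Tnc, a matrix glycoprotein of remodelling tissue, was at 7.09 to 7.24 in dedifferentiated cells and 3.61 to 4.38 in ES cells. Vim encodes the intermediate filament vimentin, and Cd44 a hyaluronan receptor.

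**Figure D4:**
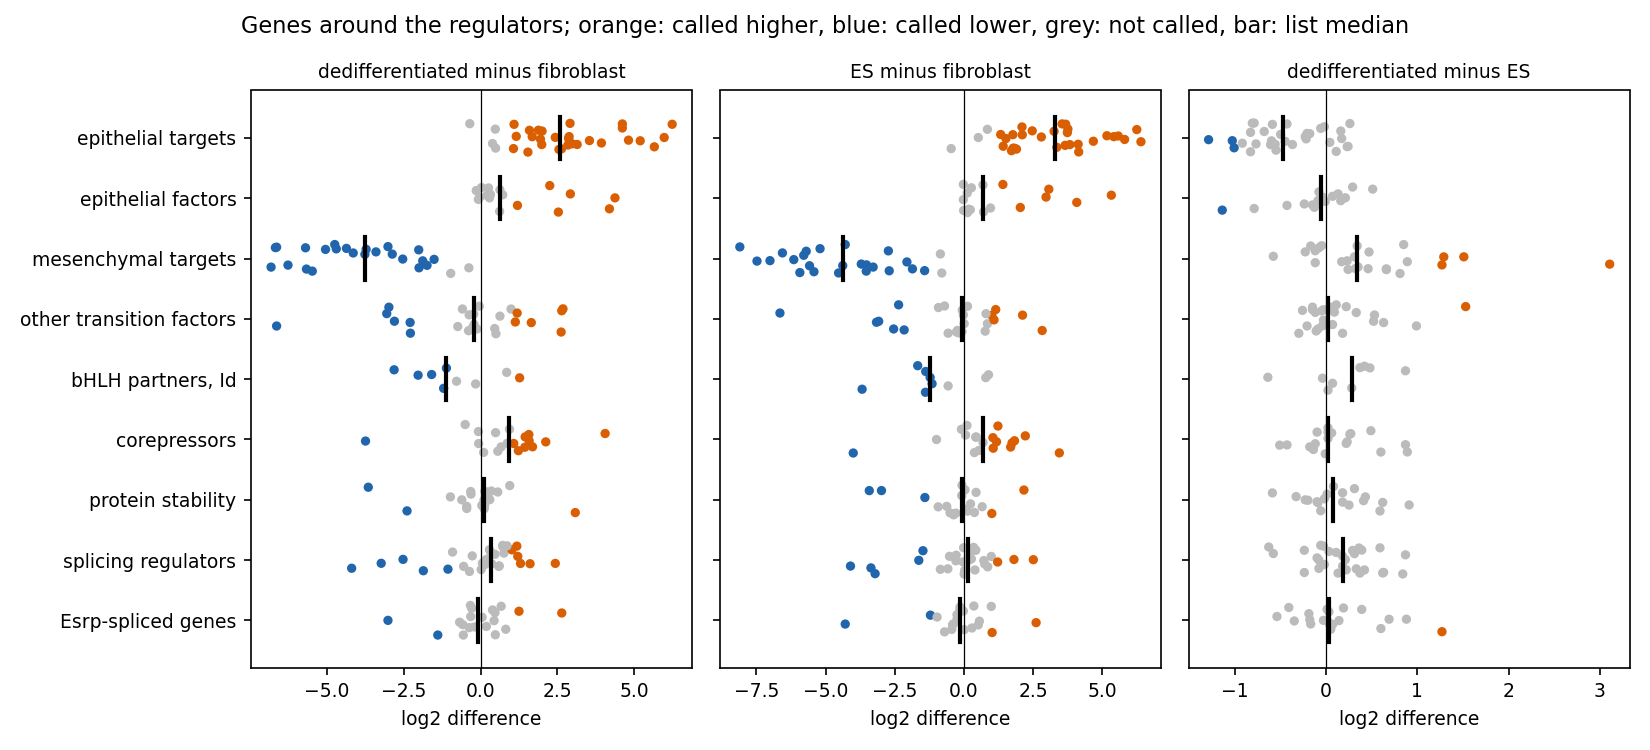
Log2 difference (x axis) of every gene of 9 lists (y axis) in the 3 comparisons, with called genes in orange (higher) and blue (lower), others in grey and list medians as black bars. Epithelial targets lie to the right and mesenchymal targets to the left in both comparisons with fibroblasts; against ES cells their medians are -0.47 and 0.34, and the panels have different scales.

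Other transcription factors linked to the transition did not move as one. Of 25, 6 rose and 6 fell in dedifferentiated cells (median -0.21), and 5 rose and 6 fell in ES cells. Tcf21, a factor of cardiac fibroblasts and epicardium, fell by 6.63 and Foxc2, a forkhead factor of mesoderm, by 3.05 in dedifferentiated cells. Tbx3, which also acts in ES cells, rose by 2.68 and the Krüppel-like factor gene Klf8 by 2.64. Foxq1, a forkhead factor linked to the transition in carcinoma cells, was at 7.94 to 8.01 in dedifferentiated cells and 6.44 in ES cells, against 5.15 to 5.58 in fibroblasts. It was the 1 gene of this list called between dedifferentiated and ES cells (1.53 log2 units, 95% interval 1.3 to 1.75). Lef1, a Wnt pathway factor gene, was just short of a call at 0.99, and passed without dedifferentiated replicate 3 (1.062) or ES replicate 1 (1.106), with array weights (1.107), median centring (1.002) or renewed quantile normalization (1.013). The rise of Foxq1 in ES cells over fibroblasts, 1.09, was 0.986 without fibroblast replicate 2. The chromatin protein gene Hmga2 differed by 0.46 from fibroblasts and by 0.52 from ES cells and was not called.

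Of 17 further factors of the epithelial state, 6 rose and 0 fell in dedifferentiated cells (median 0.62), and 6 rose in ES cells. Grhl3, a paralog of Grhl2, rose by 2.25 and by 2.04 log2 units, whereas Grhl1 differed by 0.72 and 0.96. Ovol1 and Ovol2, which oppose the transition in epithelia, differed by 0.32 and 0.63 in dedifferentiated cells and were not called. The 2 largest rises were those of Tfap2c (4.37) and Tfcp2l1 (4.19), which are also factors of early embryonic cells. Tfcp2l1 was 1.14 log2 units lower in dedifferentiated than in ES cells.

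Partners and inhibitors of the regulators were counted in 3 lists. Among 9 genes for E proteins, Id proteins and Hand factors, which pair with or block Twist, 5 fell and 1 rose in dedifferentiated cells, and 6 fell in ES cells. The Id genes Id3, Id2 and Id1, inhibitors of E proteins, fell by 2.81, 2.03 and 1.11 log2 units in dedifferentiated cells, while Id4 differed by -0.16 (adjusted p = 0.274) and was not called. Of the E proteins, Tcf4 fell by 1.59, while Tcf12 differed by -0.78 and Tcf3 by 0.85. Hand1, a factor of heart and trophoblast, rose by 1.27.

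Of 19 corepressor genes, 9 rose and 1 fell in dedifferentiated cells, and likewise 9 and 1 in ES cells. Among the rises, those of Eed and Mta3 rested on the row used. With the mean of a gene's rows, Eed went from 1.573 to 0.788 and Mta3 from 1.081 to 0.517 in dedifferentiated cells. In ES cells they were at 0.885 and 0.58, and neither was called in either comparison. Rcor2 rose by 4.05 and the Polycomb subunit gene Suz12 by 2.12 in dedifferentiated cells, and Loxl3, a lysyl oxidase linked to Snai1, fell by 3.74. Ctbp2, which encodes a partner of Zeb proteins, rose by 1.44, and its paralog Ctbp1 differed by -0.5. Of 19 genes acting on the stability of Snail or Twist proteins, 1 rose and 2 fell in dedifferentiated cells: the deacetylase gene Sirt1 rose by 3.08, the kinase gene Lats2 fell by 3.65 and Prkd1, also a kinase gene, by 2.39. That is no larger a share than the 18.9% of all genes called in either direction. Fbxl5, a ubiquitin ligase subunit gene, differed by 0.95 and passed the size rule without fibroblast replicate 1 (1.013) or 3 (1.004). None of these 3 lists had a called gene between dedifferentiated and ES cells in the limma fit, where at an unadjusted p under 0.05 and without a size rule 29 of their 47 genes differed.

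Of 29 splicing regulators other than Esrp1 and Esrp2, 6 rose and 5 fell in dedifferentiated cells (median 0.33), and 3 rose and 5 fell in ES cells (median 0.16). Some of these calls sat at the size rule. Srsf1 (1.02 in dedifferentiated cells) was at 0.991 with array weights, 0.95 without fibroblast replicate 2 and 0.983 without dedifferentiated replicate 3. Khsrp (0.99 in ES cells) passed without fibroblast replicate 3 (1.013) or ES replicate 2 (1.005) and with renewed quantile normalization (1.099). Mbnl1, a muscleblind protein gene whose product favours differentiated-cell exons, was at 7.06 to 7.11 in dedifferentiated cells and 6.19 to 6.35 in ES cells, against 9.55 to 9.66 in fibroblasts. It fell by 2.52 and by 3.36 log2 units in dedifferentiated and ES cells, and the first differed from the second by 0.84 (95% interval 0.67 to 1.0), short of a call. Mbnl2 fell by 1.86 in dedifferentiated cells, and Mbnl3 rose by 1.18. The largest falls were those of Rbms3 (4.34 to 4.42 in dedifferentiated cells, against 8.48 to 8.66 in fibroblasts) and Celf2 (5.42 to 5.51, against 8.58 to 8.84). Rbm38 rose by 2.43 and Rbpms by 1.61.

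Several proteins that are known to oppose or assist Esrp were not called. Rbfox2, which favours mesenchymal exons, differed by -0.91 in dedifferentiated cells (adjusted p = 9.8e-07), Qk by 0.06, Ptbp1 by 0.59 and Rbm47, an epithelial RNA-binding protein gene, by 0.76. All 4 were on the same side of the threshold in ES cells, at -0.85, -0.29, 0.27 and 0.86. Between dedifferentiated and ES cells 0 of 29 splicing regulators were called by limma, while 20 of 29 had an unadjusted p under 0.05. Ptbp2, a paralog of Ptbp1, differed by 0.87 and was called without ES replicate 3 (1.049) or with array weights (1.014).

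**Figure D5:**
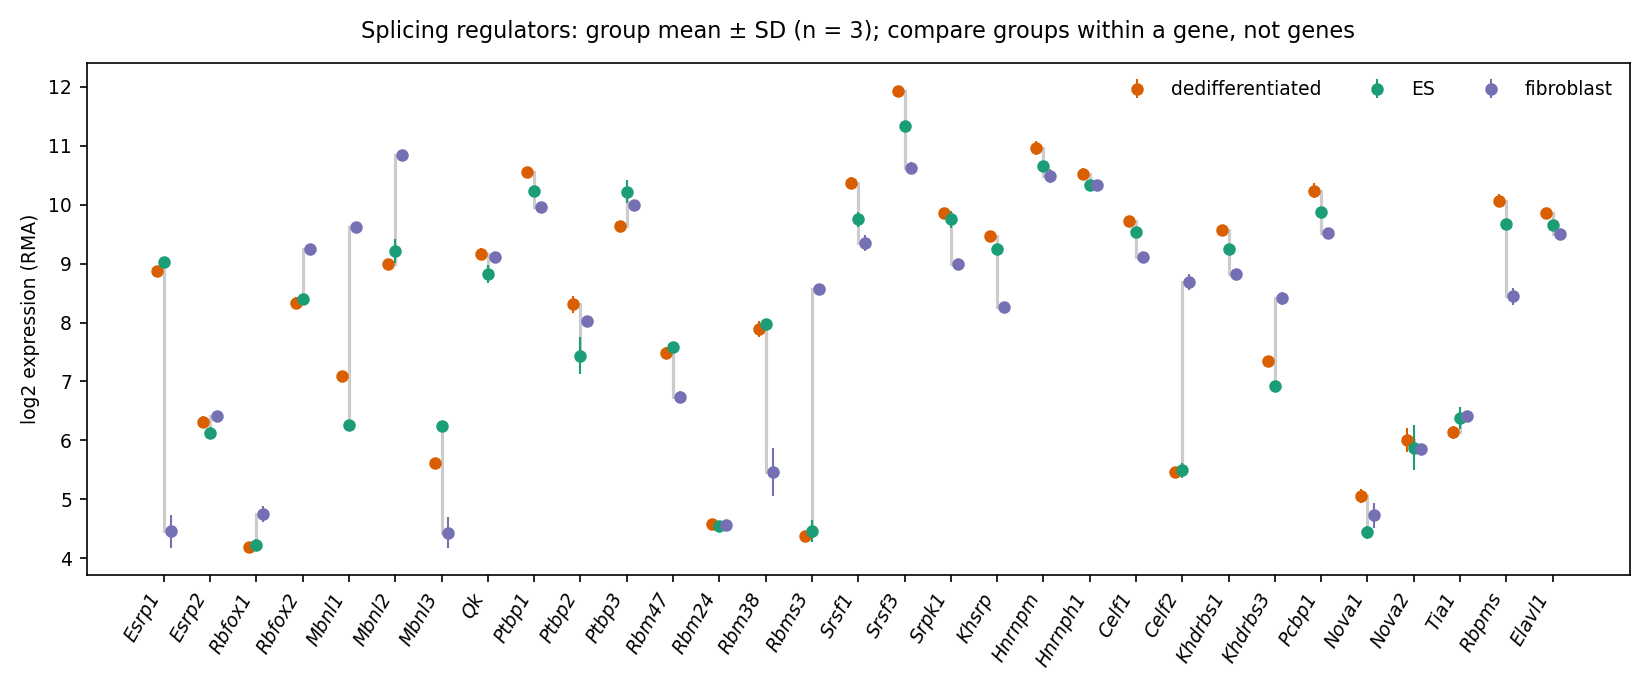
Group mean and SD (n = 3) of the log2 RMA value (y axis) of Esrp1, Esrp2 and 29 other splicing regulators (x axis) in dedifferentiated cells, ES cells and fibroblasts. Esrp1 shows the widest gap between fibroblasts and the other groups, Esrp2 almost none, and Mbnl1, Rbms3 and Celf2 are highest in fibroblasts.

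Genes whose exons are known to be chosen by Esrp proteins were counted by their total level. Of 20, 2 rose and 2 fell in dedifferentiated cells (median -0.08), and 2 rose and 2 fell in ES cells (median -0.14). These counts are close to the 18.9% and 19.2% of all genes called in either direction in the same comparisons. Macroh2a1, a histone variant gene and 1 of the ES rises (1.02), missed the size rule without fibroblast replicate 1 (0.984) or ES replicate 3 (0.973) and with array weights (0.989). Scrib, a polarity gene, was at 0.99 in ES cells and passed it without fibroblast replicate 2 (1.082), ES replicate 2 (1.059) or ES replicate 3 (1.066) and with renewed quantile normalization (1.061). Enah, an actin regulator, was at 9.26 to 9.52 in dedifferentiated cells and 9.32 to 9.39 in ES cells, against 6.69 to 6.85 in fibroblasts, a rise of 2.64 in dedifferentiated cells (95% interval 2.45 to 2.83). Cd44 fell by 3.01 and the growth factor receptor gene Fgfr1 by 1.39. Fgfr2, the receptor with the best known Esrp-controlled exon pair, differed by 0.44, and Ctnnd1, which encodes p120 catenin, by -0.2.

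The miR-200 family, known as the counterpart of Zeb1 and Zeb2, has 2 seeds, bases 2 to 8 of the mature RNA. The sequences are given to show that the first pair and the second pair differ at 1 base of the seed, and miR-205 is shown beside them as an unrelated epithelial microRNA. They are RefSeq sequences (GRCm38.p6), 5′ to 3′, with the seed in capitals.
mmu-miR-200b-3p: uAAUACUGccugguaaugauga
mmu-miR-200c-3p: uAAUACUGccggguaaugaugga
mmu-miR-200a-3p: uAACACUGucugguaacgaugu
mmu-miR-141-3p: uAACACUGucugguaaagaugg
mmu-miR-205-5p: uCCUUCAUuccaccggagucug
The array rows named for these 5 microRNA genes were not called by limma in any comparison, and at an unadjusted p under 0.05 only Mir141 in ES cells against fibroblasts (0.2 log2 units) stood out. The Mir200b row was at 3.46, 2.88 and 3.13 in dedifferentiated cells and 3.21, 3.25 and 3.13 in ES cells, against 3.04, 2.92 and 3.13 in fibroblasts. The Mir200c row was at 3.85, 3.83 and 3.98 in dedifferentiated cells and 3.85, 3.85 and 3.81 in ES cells, against 4.08, 3.83 and 3.59 in fibroblasts. The 5 differences of dedifferentiated cells from fibroblasts ran from 0.03 to 0.16 log2 units. Whether these rows read the mature microRNA is not given in the sources used here, so they set no limit on it. Mir429 had no row with a single symbol and was not analysed here.

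The genes closest in profile were found by Euclidean distance over the 9 arrays, after each gene's own mean was subtracted. Genes with clone or model names (Rik, Gm and LOC names) were left out, and Esrp2, which was not called, was not ranked. Nearest to Snai1 were Lmo4, an LIM-only factor gene (0.182 log2 units), and Parm1 (0.278); Lmo4 averaged 7.54 in dedifferentiated cells, 6.49 in ES cells and 8.78 in fibroblasts. Nearest to Prrx1 were S100a4 (0.348), a calcium-binding protein gene of fibroblasts, and the matrix gene Efemp1 (0.401). Zeb1 lay next to Mmp2 (0.311) and Pla2g4a (0.319), Zeb2 next to the collagen receptor gene Mrc2 (0.251) and Samd9l (0.311), and Snai2 next to Kitl (0.409) and Mmp12 (0.444). Twist1 had Bace1 (0.34) and Samd5 (0.383) as neighbours, and Twist2 had Hivep2 (0.282) and the elastic fibre gene Emilin2 (0.358). Esrp1 was closest to Dppa4 (0.436), a gene of pluripotent cells, and AU018091 (0.475), and Grhl2 to the imprinted gene Cdkn1c (0.276) and its own paralog Grhl3 (0.412).

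The labels were checked against markers. All 8 pluripotency markers were higher in dedifferentiated and in ES cells than in fibroblasts, and all 12 fibroblast markers were lower in dedifferentiated cells. Markers of heart muscle cells stayed at summed levels of 225 to 227, 233 to 243 and 223 to 269 in dedifferentiated cells, ES cells and fibroblasts, with 0 of 10 called by limma in any comparison and 3, 4 and 1 at an unadjusted p under 0.05 in dedifferentiated cells against fibroblasts, ES cells against fibroblasts and dedifferentiated against ES cells. Macrophage markers summed to 594 to 650 in dedifferentiated cells and 877 to 993 in ES cells, against 937 to 1111 in fibroblasts, with 5 of 10 lower and 2 higher in dedifferentiated cells than in fibroblasts. The 5 lower genes were Lyz2 (-5.65), C1qc (-1.98), C1qb (-1.96), C1qa (-1.93) and Itgam (-1.77). Lyz2 averaged 8.85 in fibroblasts, against 3.2 in dedifferentiated and 3.34 in ES cells. In all, 8 of the 10 markers lay below 0. The 2 higher genes sat at the size rule. Cd68 (1.05) was at 0.999 without fibroblast replicate 2. Laptm5 (1.02) was at 0.927 without fibroblast replicate 3 and 0.95 without dedifferentiated replicate 3. Cd68 and Laptm5 weigh heavily in the sums, with means of 8.71 and 8.64 in ES cells and 6.97 and 6.89 in fibroblasts. Of 7 surface epithelium markers, Sfn rose by 3.08 and Ivl fell by 1.25 in dedifferentiated cells, while Krt5 differed by 0.29 and Krt14 by 0.25. Of 8 trophoblast markers, 5 rose and 0 fell in dedifferentiated cells, and 3 rose and 0 fell in ES cells. Between dedifferentiated and ES cells 0 of the 8 were called by limma. The largest rises in dedifferentiated cells, of Tfap2c (4.37) and Krt7 (2.63), were also counted in the epithelial lists. Xist, the X-inactivation RNA, was at 3.07 to 3.49 in dedifferentiated cells and 2.78 to 3.39 in ES cells, against 7.24 to 7.39 in fibroblasts, and the Y-linked Eif2s3y at 7.95 to 8.18 and 7.47 to 7.95, against 3.45 to 3.69. Both comparisons with fibroblasts therefore also set apart cells that differ in sex-linked transcripts, and the part of this in the differences was not tested. With a Y-linked transcript high only in the other groups, the fibroblast arrays cannot be taken as the starting cells of the dedifferentiated ones. Rises and falls in this text compare groups and do not follow the same cells.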

How the data were processed

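Total RNA of 9 samples was read on 9 one-colour Affymetrix Mouse Gene ST arrays. The deposited values are log2 expression values, produced with RMA by Affymetrix Expression Console 1.1, per the submitters' processing notes. RMA generally subtracts background, gives all arrays 1 distribution of values and condenses probes to 1 value per probe set. A global shift in RNA is thereby removed, and differences of dim genes come out too small. No detection call was used. The table has 35557 rows; 21789 had 1 symbol in the platform annotation, 1621 several and 12147 none. Of the first, 21698 matched the NCBI gene table (GRCm38.p6) by Entrez ID. For 999 genes with more than 1 row the row with the highest mean was used, leaving 19938 genes.

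Groups and replicate numbers were taken from the titles; the source label of the fibroblasts also mentions ES cells. All 9 arrays entered 1 fit in limma 3.58.1 under R 4.3.3 (lmFit, eBayes), and p-values were adjusted over all genes by Benjamini-Hochberg. The precision is limited by 3 arrays per group. Same-numbered arrays of different groups had deviations correlated above 0.1 in 3 of 9 pairs (correlations -0.204 to 0.25), and the numbers were not used as pairs. Between fibroblasts and dedifferentiated cells the same-numbered correlations were 0.101, 0.154 and 0.038. Such weak values cannot decide whether the numbers pair the samples. The fit was tested on simulated data of 19938 genes. For dedifferentiated cells against fibroblasts it called 0 of 67 genes given a change of 0.5 log2 units, under the size rule. It called 66 of 67 given 1.5, 66 of 66 given 3, and 0 unchanged genes. The noise was drawn independently for each array with the spread seen within groups. The simulation therefore checks the fit and cannot show whether the arrays are separate samples.

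The regulators and the gene lists (210 genes, 199 with a row) were chosen with earlier results of these data known. Named list genes were 27 fixed genes and, per list and comparison, up to 2 called genes at each end of the range of differences. Others (Muc1, St14, Mbnl2, Id4, Scrib, Ptbp2, Srsf1, Khsrp, Lef1, Ddr2, Thy1, Fap, Krt5, Krt8, Krt14, Cldn4, Spint2, C1qa, Itgam, Eed and Mta3) were named after their values were seen. Of each regulator called in any comparison, which leaves out Esrp2, the 2 genes nearest in profile were named. Clone and gene model names (Rik, Gm and LOC names) were left out of that ranking. Alternatives were another normalization, filters on dim genes, other rows, other variance models, array weights, only the groups compared, a replicate block, other thresholds and leaving out each array.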

Additional observations from a re-analysis of the deposited data

How the results depend on the processing

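The 30 differences of the 10 regulators were recomputed under other settings, and 625 of 627 values kept their direction and their side of the threshold. The exceptions were both Snai1 in dedifferentiated against ES cells, at 0.999 log2 units with array weights and 0.985 without ES replicate 1. Settings that change the size rule itself are not among the 627 values. At a minimum change of 1.5 log2 units, 8 regulators were called in dedifferentiated cells against fibroblasts and 9 in ES cells against fibroblasts. Snai1, at -1.19 in the first comparison, was short of that size. With no minimum change the counts were 9 and 10. Among genes above the median level they were 8 and 8, and a regulator removed by this filter gave no value. Between dedifferentiated and ES cells 1 regulator was called; 0 were with array weights, 0 at a minimum change of 1.5 log2 units and 5 with no minimum change, and leaving out 1 array at a time gave 0 to 1. List genes called were 102 in dedifferentiated cells against fibroblasts and 164 with no minimum change, 101 in ES cells against fibroblasts and 158 with no minimum change, and 9 in dedifferentiated against ES cells, with 84 at no minimum change and 3 at 1.5 log2 units. With the replicate number as a block, 9, 9 and 1 regulators and 102, 101 and 9 list genes were called. Of the 9 arrays, 3 correlated best with their own number, which does not decide whether the numbers pair the samples. For 80 named list genes 4989 values were recomputed, again without the settings that change the size rule. Of these values, 16 lost and 10 gained a call and 0 reversed, all near 1 log2 unit. Eed and Mta3, not among the 80, changed more when the mean of a gene's rows was used. The values carry no detection call, so dim levels may be background, such as Snai2 or Prrx1 in ES cells and Esrp1 or Grhl2 in fibroblasts. The 3 arrays a group limit the precision.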
